A study of Mus musculus with 6 samples.

Results

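The genes described here are 41 splicing regulators: 19 heterogeneous nuclear ribonucleoproteins (hnRNPs) and 22 other proteins that decide which exons and introns a transcript keeps. They were taken by gene symbol from the 19386 genes of the authors' deposited table, and all 41 were found there. The cells were bone marrow-derived macrophages of wild-type C57BL/6 mice. In 1 group of 3 libraries the mice had been exposed to cigarette smoke, and in the other group of 3 libraries they had been kept in room air. Marrow depleted of erythrocytes was grown in medium with 10% supernatant of L929 cells, a fibroblast line that secretes a macrophage growth factor, and harvested on day 11, so the exposure took place in the animal and all cells had since been in culture. Age, sex, and the length and dose of exposure are not given in the labels, which also do not say that each library came from a separate mouse, so the splicing p-values of limma measure only the spread between these 6 libraries. The expression p-values are the authors' own, from a fit to 24 libraries of which 18 are not used here, so their spread is not that of these 6 libraries alone.

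hnRNPs coat nascent RNA and often block nearby splice sites, while SR-related, RBM, TIA and LUC7-like proteins more often help the spliceosome to use them. Many of these proteins control their own level through their transcripts: an exon with a premature stop codon, called a poison exon, or a retained intron sends the transcript to nonsense-mediated decay (NMD) or holds it in the nucleus. In macrophages, retained introns and such exons are known to be regulated during differentiation and activation.

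The sequences below are those the splicing results turn on, from GENCODE M21 transcripts on GRCm38, written 5′ to 3′. The first set shows splice sites of retained introns that lie in Hnrnph1, Hnrnpa2b1 and Luc7l3, with the GT that opens or the AG that closes the intron in capitals, 3 exon bases, and 6 intron bases at the 5′ end or 20 at the 3′ end.
Hnrnph1 197-nt intron, 5′ site, chr11:50379621-50379629, plus strand: aagGTttga
Hnrnph1 197-nt intron, 3′ site, chr11:50379801-50379823, plus strand: attctaagcacctctttcAGtat
Hnrnph1 1494-nt intron, 5′ site, chr11:50379962-50379970, plus strand: cagGTatgt
Hnrnph1 1494-nt intron, 3′ site, chr11:50381439-50381461, plus strand: tatttgtccttgggttgaAGggt
Hnrnph1 939-nt intron, 5′ site, chr11:50381595-50381603, plus strand: cagGTgggg
Hnrnph1 939-nt intron, 3′ site, chr11:50382517-50382539, plus strand: ccttttggacaatgctttAGgta
Hnrnpa2b1 1977-nt intron, 5′ site, chr6:51463405-51463413, minus strand: tggGTaagt
Luc7l3 1506-nt intron, 5′ site, chr11:94293079-94293087, minus strand: gagGTaagt
Luc7l3 1506-nt intron, 3′ site, chr11:94291576-94291598, minus strand: ccccaaattttgcattgtAGgac
The Hnrnph1 939-nt intron begins with GTgggg, whereas the Hnrnpa2b1 and Luc7l3 introns begin with GTaagt. A 2572-nt Hnrnph1 intron runs from the 5′ site of the 1494-nt intron to the 3′ site of the 939-nt intron, so these 3 events share splice sites.

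The second set shows the stop codon, in capitals, inside exons that GENCODE M21 places in NMD transcripts and in no protein-coding transcript, with up to 12 exon bases on each side. These are the candidate poison exons of the regulators. For the Rbm39 72-nt exon, the junction that skips it is itself annotated in NMD transcripts only. Its inclusion level therefore does not set an NMD form against an annotated coding form.
Tra2b 276-nt and 397-nt exons, chr16:22259169-22259195, minus strand: ctcaggaataagTGAagctgaaatttg
Tial1 59-nt exon, chr7:128444071-128444097, minus strand: tcaccaccccaaTAAacttagacagtg
Tial1 68-nt exon, chr7:128446753-128446779, minus strand: atgatagagaatTGAccaagaaaaata
Rbm39 72-nt exon, chr2:156174114-156174140, minus strand: tccatctccttgTGAttggagtgtggg
Rbm39 73-nt exon, chr2:156178880-156178895, minus strand: aactgtcaatcaTAAg
Srrm2 261-nt exon, chr17:23811845-23811871, plus strand: gtccctgccctcTAGgagctgacaggc
Hnrnpll 83-nt exon, chr17:80044964-80044990, minus strand: agaagcccacttTGAaaatgtgttgct
The stop lies 16 bases into the Tial1 59-nt exon and 79 bases into both Tra2b exons, which start at the same 3′ splice site and differ in their end.

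In RNA level, 7 of the 41 regulators passed the test and all 7 were lower after smoke. None of these 7 calls held when a trend of fold changes with GC content and transcript length was taken out, which left 0 lower and 2 higher (beside 0.439% and 0.828% of all genes), and this applies to each gene said to have fallen in the paragraphs on roles. They were Tia1, Luc7l3, Rbm5, Rbm25, Luc7l2, Hnrnpa2b1 and Ptbp3, with levels of 57.8% to 73.4% of those in room air. The 7 are 17.1% of the regulators, beside 7.69% of the 12082 genes tested (3.53% lower and 4.15% higher), at an adjusted p under 0.05 in the authors' deposited table. All 41 regulators had passed the authors' filter on low counts. The fold change was below 0 for 31 of the 41, or 75.6%, compared with 50.3% of all genes tested. With the trend in GC content and length taken out, it was below 0 for 25 of the 41, with a median of -0.05. The same step left 6342 of 12071 genes below 0. By the authors' deposited table, log2 fold changes had a median of -0.17 over the regulators and 0.01 over all tested genes whose mean was 50 normalized counts or more. These are bulk libraries, so fewer cells that express a gene and less RNA of it per cell cannot be told apart, and the files used here hold group means of expression without a value per library.

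**Figure D1:**
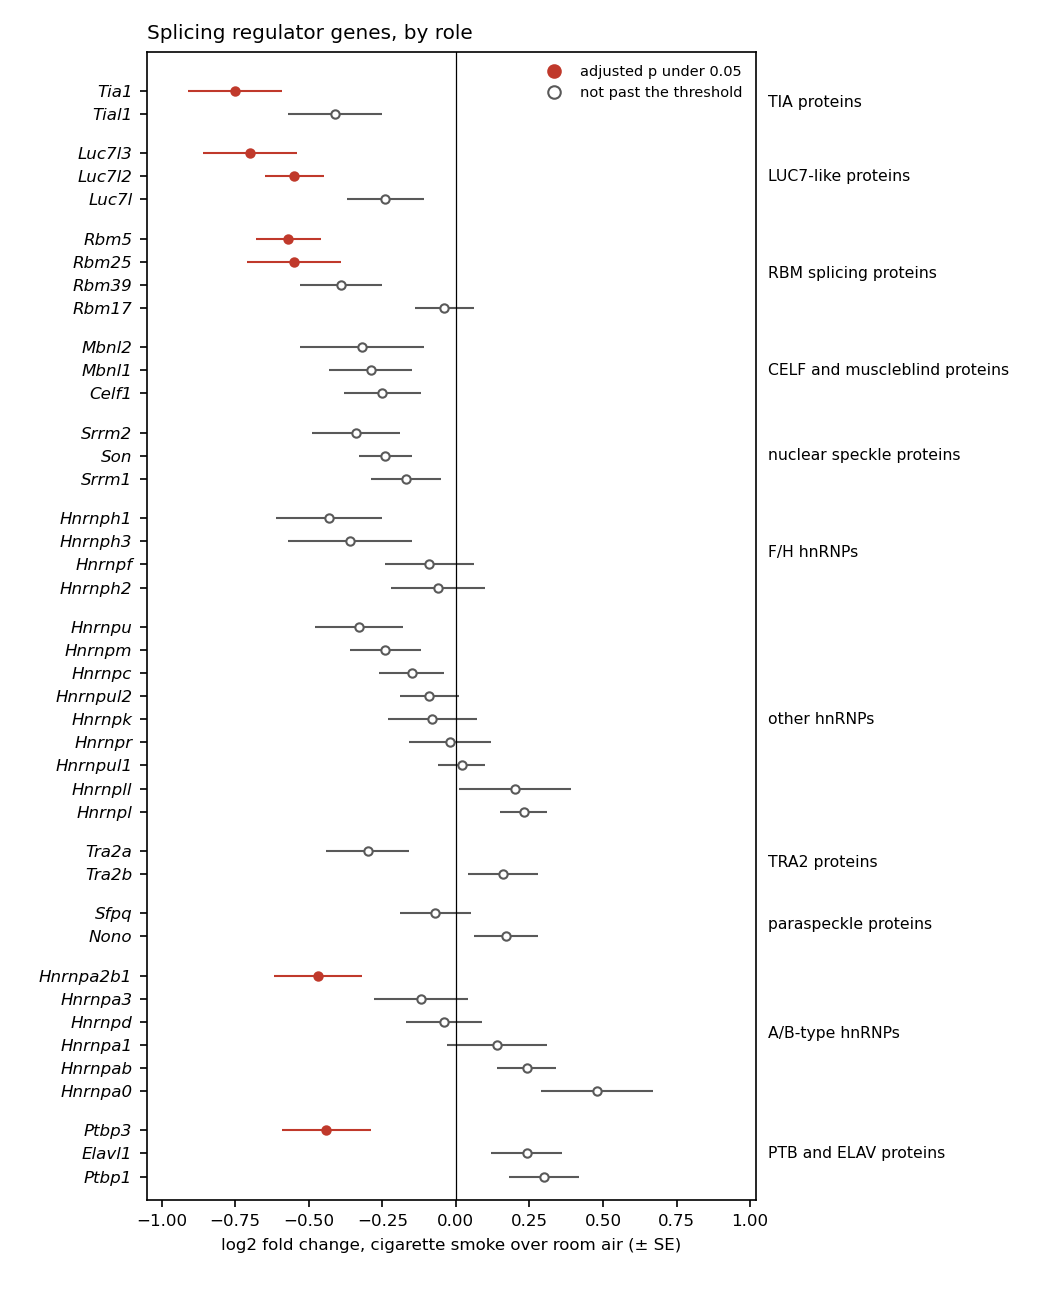
Log2 fold change of each of the 41 regulators, cigarette smoke over room air, from the authors' deposited table, with bars for its standard error and the genes grouped by role. The 7 filled points passed an adjusted p of 0.05 and lie between -0.75 and -0.44, and no gene to the right of 0 passed.

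The TIA proteins bind uridine-rich stretches downstream of weak 5′ splice sites and recruit U1 snRNP, the particle that recognises those sites. By the authors' deposited table, Tia1 fell from a room air mean of 249 normalized counts to 144 after smoke (log2 fold change -0.75 ± 0.16 SE, adjusted p = 0.000508). Its paralog Tial1 went from 468 to 350 and did not pass (-0.41, adjusted p = 0.0893 in the authors' deposited table). Tia1 shares exonic bases on the same strand with the annotated gene Gm44790, so its count is uncertain where reads could be assigned to either.

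The LUC7-like proteins are U1 snRNP-associated factors that help choose among 5′ splice sites, and 2 of 3 fell, beside 3.53% of all genes tested; neither call held with the trend in GC content and length taken out. The authors' deposited table gives Luc7l3 means of 905 in room air and 554 after smoke (log2 fold change -0.70 ± 0.16 SE, adjusted p = 0.00132). Luc7l2 went from 851 to 576 there (-0.55 ± 0.10 SE, adjusted p = 4.61e-05, the authors' deposited table). Luc7l had the lowest count of the 3, with 213 and 176 in the authors' deposited table, and did not pass (-0.24, adjusted p = 0.235).

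Among the RBM proteins, Rbm5 and Rbm25 fell. Rbm5, a regulator of exon skipping in apoptosis genes, went from 987 to 667 by the authors' deposited table (-0.57 ± 0.11 SE, adjusted p = 4.48e-05). Rbm25, which works with Luc7l3 in the choice of 5′ splice sites, went from 1034 to 699 by the authors' deposited table (-0.55 ± 0.16 SE, adjusted p = 0.0169). Rbm39, a U2AF-like factor with the highest count of the 4, went from 1231 to 938 and missed the threshold (-0.39, adjusted p = 0.0746 in the authors' deposited table). Rbm17, a U2AF-homology protein of the early spliceosome, stood at 268 and 257 (-0.04 in the authors' deposited table).

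Of the 19 hnRNPs, 1 passed the test (5.26%, near the 7.69% of all genes tested), and their median log2 fold change was -0.08. Of the other 22 regulators, 6 passed (27.3%), with a median of -0.30. The difference between these 2 groups was not tested. Hnrnpa2b1, a nuclear hnRNP that binds purine-rich RNA and takes part in the sensing of foreign nucleic acid, fell from 2675 to 1922 by the authors' deposited table (-0.47 ± 0.15 SE, adjusted p = 0.0257). Of its A/B-type relatives, Hnrnpa0, which binds AU-rich elements of cytokine messages in macrophages, had the highest fold change of all 41 (214 and 298 in the authors' deposited table, 0.48 ± 0.19 SE) without passing (adjusted p = 0.0909). Hnrnpab, a relative of Hnrnpd, stood at 1225 and 1450 in the authors' deposited table (0.24, adjusted p = 0.121).

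All 4 F/H hnRNPs, which bind runs of guanines, had fold changes below 0 and none passed. Hnrnph1 went from 1416 to 1054 by the authors' deposited table (-0.43 ± 0.18 SE, adjusted p = 0.124). Hnrnpf stood at 1620 and 1517 in the authors' deposited table (-0.09). Among the other hnRNPs, Hnrnpu, a scaffold protein of chromatin-bound RNA, went from 3478 to 2767 (-0.33, adjusted p = 0.158 in the authors' deposited table), and Hnrnpl, which represses exons through CA repeats, from 999 to 1176 (0.23, adjusted p = 0.0571).

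PTB proteins repress exons by binding pyrimidine tracts, and the fold changes of the 2 paralogs described here had opposite signs. Ptbp3, the paralog typical of blood cells, fell from 1940 to 1423 by the authors' deposited table (-0.44 ± 0.15 SE, adjusted p = 0.0426). Ptbp1 stood at 1094 and 1349 in the authors' deposited table and did not pass (0.30 ± 0.12 SE, adjusted p = 0.0879). Elavl1, the stabiliser of AU-rich messages also called HuR, stood at 319 and 376 (0.24, adjusted p = 0.198 in the authors' deposited table). The TRA2 proteins, activators of exons with purine-rich enhancers, stood at 309 and 246 for Tra2a and at 521 and 584 for Tra2b in the authors' deposited table, with neither past the threshold.

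The CELF and muscleblind proteins, which oppose each other on many developmental exons, included the regulator with the highest level. Mbnl1 stood at 6140 and 5023 by the authors' deposited table (-0.29, adjusted p = 0.177). Per kilobase of its longest transcript, Mbnl1 also ranked first with 1086 in room air, ahead of Hnrnpk with 768 and Hnrnpa2b1 with 734. Mbnl2 (-0.32) and Celf1 (-0.25) did not pass either in the authors' deposited table. Of the nuclear speckle proteins, Srrm2, a large scaffold of speckles, went from 3275 to 2580 (-0.34, adjusted p = 0.141 in the authors' deposited table), and Son, its partner scaffold, from 2257 to 1909 (-0.24, adjusted p = 0.0879). Nono, a paraspeckle protein, stood at 1344 and 1518 in the authors' deposited table (0.17, adjusted p = 0.359).

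The fold changes of all genes ran with GC content, and the 7 regulators that fell are poor in GC. Their median GC content was 41.6% and their median transcript length 4672 bases, compared with 44.1% and 4451 for all regulators and 49.4% and 3250 for all genes tested. When the trend over 12071 genes in GC content and length was taken out, none of the 7 passed, at recomputed adjusted p-values from 0.0514 for Luc7l2 to 0.943 for Ptbp3. Their residual log2 fold changes were all still below 0, with a median of -0.34, from -0.52 for Tia1 to -0.07 for Ptbp3. In the same step, 2 regulators passed as higher, beside 0.828% of genes called higher, 0.439% lower and 1.27% in either direction: Elavl1 at 0.43 (adjusted p = 0.0244) and Hnrnpr at 0.50 (adjusted p = 0.03). Hnrnpr had a log2 fold change of -0.02 before this step, and its longest annotated transcript has 21452 bases.

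**Figure D2:**
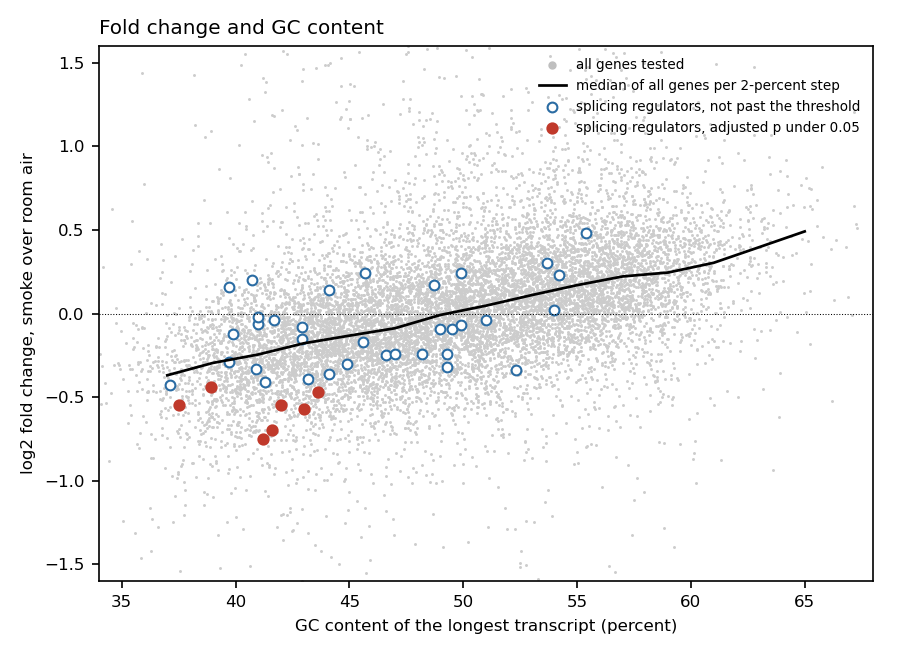
Log2 fold change against GC content of the longest transcript, in percent, for all genes tested (grey), the regulators (circles) and the median of all genes in steps of GC content (line); genes beyond the axes are not drawn. The line rises with GC content, and the 7 filled regulators lie at its GC-poor end and below it.

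Transcript structures that feed NMD are annotated for more of these genes than for most. At least 1 NMD transcript is listed for 24 of the 41 regulators (58.5%), including all 7 that fell, compared with 30.4% of 10975 protein-coding genes tested. At least 1 retained-intron transcript is listed for 33 of 41 (80.5%), again including all 7, compared with 60.6%. Annotation depth differs between genes, and GENCODE M21 lists neither kind for Hnrnph1.

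Other splicing genes were counted from lists without naming members. Of 10 SR proteins tested, 1 was lower and none higher at an adjusted p under 0.05 in the authors' deposited table. Of 6 SR protein kinases, 1 was lower and none higher, and of 32 core spliceosome proteins 2 were lower and 2 higher in the authors' deposited table. Together 6 of these 48 genes passed (12.5%), beside 7.69% of all genes tested (3.53% lower and 4.15% higher). The median log2 fold change over the 48 was -0.02, compared with -0.17 for the regulators.

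The cells carried the markers of macrophages. All 7 macrophage markers were tested, with a summed level of 52726 normalized counts in room air and 52343 after smoke in the authors' deposited table, and none of the 7 passed. Lyz2, at 23168 and 24772 in the authors' deposited table, makes up much of that sum. The fold change was below 0 for 5 of the 7, and Mrc1, the mannose receptor, stood at 3601 and 2196 in the authors' deposited table (-0.71 ± 0.27 SE, adjusted p = 0.0836), about the size seen for Tia1 and Luc7l3; its part in the results was not tested. The listed markers of B cells, dendritic cells, neutrophils and erythroid cells summed to at most 1.29 normalized counts in either group. Only 2 of 4 B cell, 3 of 4 dendritic, 1 of 5 neutrophil and 1 of 4 erythroid markers were listed. Cd4 was the only T cell marker listed, at 29 and 22.4 in the authors' deposited table. The 4 stromal markers summed to 42.3 in room air and 9.08 after smoke, with Col1a1 and Col1a2 making up most of it and none past the threshold; their part in the results was not tested.

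Splicing was measured as the percent inclusion of each event in each library, estimated by the authors with JuncBASE from reads across splice junctions and introns. The regulators held 188 of the 10376 events, in 34 genes; no event was listed for Hnrnpa0, Hnrnpa3, Hnrnph3, Hnrnpul2, Elavl1, Luc7l and Tia1. No event in a regulator passed an adjusted p of 0.05 with limma, and none of all 10376 did (0%). The lowest adjusted p in a regulator was 0.225. The authors' deposited JuncBASE comparison gave a lowest corrected p of 0.498 in a regulator and 0.0847 over all events. At an unadjusted p under 0.05 there were 14 events, 13 lower and 1 higher, which is 7.45% of the regulators' events compared with 10.8% of all events (9.29% lower and 1.55% higher). This count, which decides the events described below, was 3 without room air replicate 2, 6 without room air replicate 1, 7 without room air replicate 3, 8 without smoke replicate 1, 16 without smoke replicate 2 and 54, 12 of them higher, without smoke replicate 3. With a pseudocount of 5 it was 24, 4 of them higher, and 11 of the 14 were among them. On untransformed percentages it was 43, 11 of them higher, and 7 of the 14 were among them. The library of smoke replicate 1 lacked a value in 61 of the 188 events, compared with at most 1 in any other library.

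The count of calls changed with 1 library. Without cigarette smoke replicate 3, limma called 13 events in 10 regulators at an adjusted p under 0.05, 11 lower and 2 higher, which is 6.91% of the regulators' events beside 10.4% of all events. In 6 of the 13, smoke replicate 1 has no value, so the smoke arm was then a single library, assumed to vary like the room air libraries. The other 7, each with 2 smoke libraries and all lower, were the 730-nt Hnrnpm, 967-nt Hnrnpa2b1 and 629-nt Ptbp1 introns, the Hnrnpll 83-nt and Tial1 59-nt exons, a 3′ splice site of Luc7l3 and one of Rbm39. The Hnrnpll exon was included at 12.5%, 6.38% and 7.84% in room air and at 0%, 0% and 23.1% after smoke. The library left out was thus its highest, and with all libraries its mean difference was -1.21 points. Leaving out any of the other 5 libraries gave 0 calls in the regulators.

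Retained introns made up 56 of the events, in 23 regulators, and were lower after smoke in 52 of 56. This is 92.9%, compared with 89.9% of all 3305 retained introns in the table. The median difference was -5.38 percentage points in the regulators and -3.79 over all retained introns. Among the 38 introns with a value in all 6 libraries, every smoke library was below every room air library for 25, or 65.8%, compared with 38.7% of 1992 introns in the whole table; none of the 38 lay wholly above, beside 0.251%. At an unadjusted p under 0.05 with limma there were 10 of 56 (17.9%), beside 20.9% of all retained introns. The mean over these 38 introns was 21.6%, 22.1% and 19.1% in the room air libraries and 12.6%, 14.4% and 16% in the smoke libraries, so the groups did not overlap. The group means were 20.9% ± 1.62 and 14.3% ± 1.66 (SD, n = 3 each), a difference of -6.56 points, larger than the spread between libraries. Over all 1992 introns the means were 15.7% ± 0.978 and 11.4% ± 1.28 (SD, n = 3 each), and relative to room air the regulators kept 68.6% and all introns 73%.

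**Figure D3:**
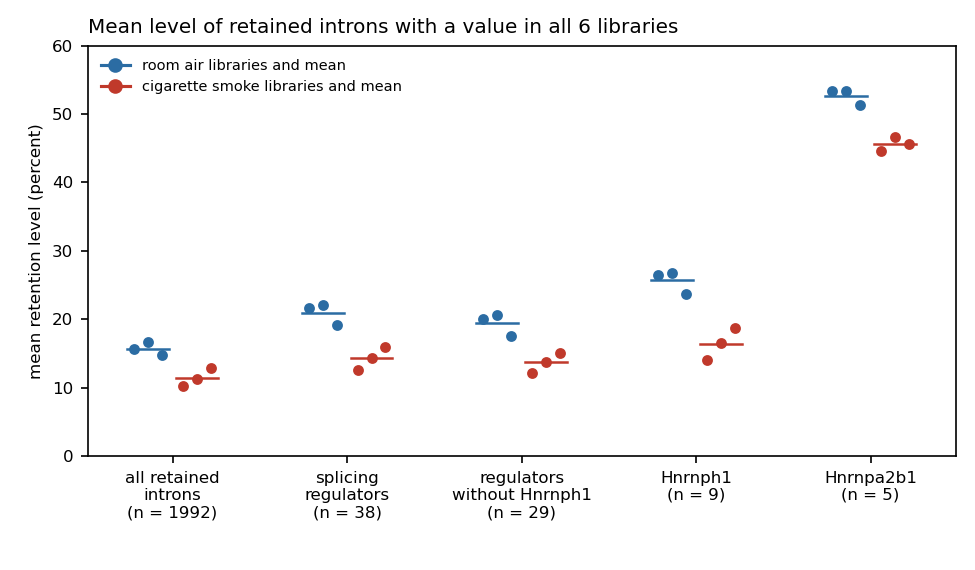
Mean retention level, in percent, over introns with a value in all 6 libraries; each point is 1 library and the bars are group means. The 3 smoke libraries lie below the 3 room air libraries in each of the 5 sets, including all 1992 introns of the table.

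Hnrnph1 held more of these introns than any other regulator. All 11 were lower after smoke, and in the 9 with a value in every library, no smoke library reached a room air library. Of all 3305 retained introns 89.9% were lower, and 38.7% of those with 6 values did not overlap in this direction. The mean of the 9 was 25.7% ± 1.68 in room air and 16.4% ± 2.32 after smoke (SD, n = 3 each). The 197-nt intron, whose sites are printed above, was retained at 13.2%, 18.2% and 14.4% in room air and at 0%, 4.65% and 5.56% after smoke (limma, unadjusted p = 0.0211, adjusted p = 0.358). The 939-nt intron stood at 37.1%, 37.3% and 33.3% in room air and at 19.1%, 20.6% and 25.4% after smoke. The 1494-nt intron upstream of it stood at 39.4%, 43.7% and 35.5% in room air and at 22.2%, 27.8% and 29.6% after smoke. The last 2 flank an exon, and the 2572-nt intron that spans both had the highest level, with 78%, 78.4% and 76.7% in room air and 61.5%, 66.7% and 68.7% after smoke. The 874-nt intron stood at 62.5%, 68.9% and 64.9% in room air and at 43.8% and 54.5% in the 2 smoke libraries with a value. At the 3′ end of the gene, the 1040-nt intron had 55.6%, 43.9% and 47.1% in room air and 23.1% and 27.3% in the 2 smoke libraries with a value (limma, unadjusted p = 0.0382, adjusted p = 0.418), and the 586-nt intron inside it averaged 9.27% and 3.73% (limma, unadjusted p = 0.0325, adjusted p = 0.409). Several of these introns overlap, so they are not independent measurements. Each level is relative to the junction of that intron. For an intron that spans an exon or a shorter intron, it is not the share of transcripts that keep the whole stretch. The 1040-nt intron averaged 48.8% in room air, but the 50-nt exon inside it was included at 85.6%. The 404-nt and 586-nt introns beside that exon averaged 12.2% and 9.27% there. The 874-nt intron, at 65.4%, contains a 723-nt intron at 16.9%.

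**Figure D4:**
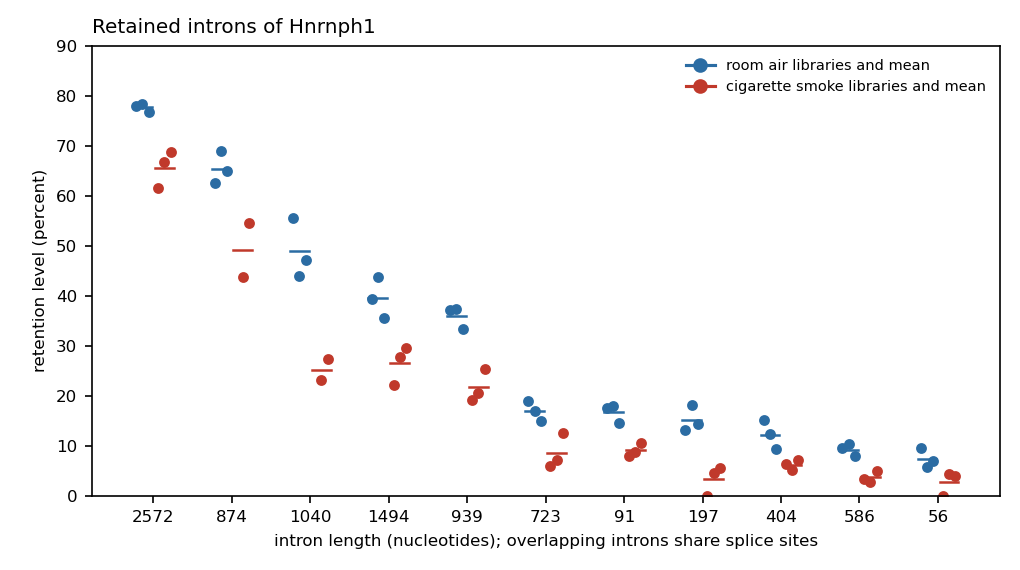
Retention level, in percent, of the 11 retained introns of Hnrnph1, named by length in nucleotides; points are libraries and bars are group means. The smoke libraries lie below the room air libraries at all 11, and at 2 of them smoke replicate 1 has no value.

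Without Hnrnph1 the pattern was smaller. Over the other 29 introns with 6 values the means were 19.4% ± 1.6 and 13.7% ± 1.46 (SD, n = 3 each), and 16 of the 29 (55.2%) did not overlap between groups, beside the 38.7% of all introns. Hnrnpa2b1 followed with 4 of 5 introns. Its 1977-nt intron, which begins at the same 5′ site as the 1355-nt intron, was retained at 53%, 63.2% and 57.5% in room air and at 33.3%, 42.9% and 40.2% after smoke (limma, unadjusted p = 0.0489, adjusted p = 0.458). Its 967-nt intron had 3.23%, 8.14% and 6.02% in room air and 0%, 0% and 2.86% after smoke (limma, unadjusted p = 0.0226, adjusted p = 0.363). The 1355-nt Hnrnpa2b1 intron stood at 89.7%, 82.9% and 86% in room air and at 75%, 78.3% and 80.2% after smoke, again with no overlap. The 1863-nt Hnrnpa2b1 intron had the highest level of all, 94% and 96.9%, and did not separate the groups. The 486-nt intron did not either, at 75.2% and 75%. The 1863-nt intron overlaps the 967-nt intron, which averaged 5.8% and 0.953%. Its level is therefore relative to its own junction and is not the share of transcripts that keep it. The 1977-nt and 1355-nt introns both contain a 156-nt intron that averaged 19.3% and 13.6%, so the same limit applies to them.

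In the other regulators whose RNA fell, the introns had the following levels. The 1506-nt Luc7l3 intron was retained at 44.9%, 45.1% and 43.1% in room air and at 25%, 33.3% and 35% after smoke, without overlap (limma, adjusted p = 0.524). The 2783-nt Rbm5 intron had 18.2%, 26.5% and 21.3% in room air and 7.14%, 10% and 17% after smoke, also without overlap. The 5103-nt Rbm5 intron was near 0 in both groups, with means of 2.15% and 2.94%. The 3300-nt Rbm25 intron had 13.7%, 12.2% and 6.98% in room air and 0% and 7.89% in the 2 smoke libraries with a value. JuncBASE listed no retained intron for Tia1, Luc7l2 and Ptbp3.

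5 more introns had an unadjusted p under 0.05 with limma. The 629-nt Ptbp1 intron averaged 4.36% and 0.617% (unadjusted p = 0.0185, adjusted p = 0.346, limma). The 4313-nt Rbm39 intron, which contains the 72-nt exon printed above, had 19.7%, 18.4% and 15.1% in room air and 6.67%, 6.9% and 9.29% after smoke. The 1850-nt Tial1 intron, without a value in smoke replicate 1, averaged 12.1% and 2.54%. The 730-nt Hnrnpm intron averaged 5.64% and 1.37%, with 0%, 0% and 4.11% in the smoke libraries, and the 687-nt Mbnl1 intron 7.89% and 2.34%. The raw p of the authors' deposited JuncBASE comparison was 0.437 for the Ptbp1 intron and 0.492 for the Hnrnpm intron. It was 0.153 for the Mbnl1 intron and 0.07 for the Rbm39 intron.

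GENCODE M21 places 10 cassette exons of 7 regulators in NMD transcripts and in no protein-coding transcript, and 9 were lower after smoke on average. They are the 8 printed above, which hold a stop codon, and the Hnrnpd 107-nt and Son 80-nt exons, for which no annotated stop codon lies within the exon. The median difference was -5.13 percentage points, compared with -3.03 over the 75 such exons of the table, of which 68% were lower. Most overlapped between the groups. The Tial1 59-nt exon was included at 12.9%, 8.33% and 3.7% in room air and at 0%, 0% and 4.48% after smoke (limma, unadjusted p = 0.0306, adjusted p = 0.407). The Tial1 68-nt exon had 8%, 7.32% and 11.1% in room air and 0% and 5.08% in the 2 smoke libraries with a value. The Tra2b 276-nt exon, whose inclusion is known to dampen Tra2b through its own protein, had 12.5%, 21.2% and 18.9% in room air and 7.14%, 9.38% and 16.4% after smoke, so the groups overlapped. The Rbm39 73-nt exon had the highest level of the 10, with means of 29.9% and 24.6%.

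The exon of the 10 with the higher mean after smoke was that of Son, 1 of the 2 without a stop codon of their own. This 80-nt exon, at chr16:91674695-91674774 on the plus strand, was included at 4.08%, 2.22% and 6.17% in room air and at 16.7%, 15.4% and 9.68% after smoke, so all smoke libraries lay above all room air libraries. This was the only event in a regulator with higher inclusion at an unadjusted p under 0.05 (0.0161, adjusted p = 0.329, limma). Its length is not a multiple of 3, and GENCODE M21 lists it in 2 NMD transcripts.

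**Figure D5:**
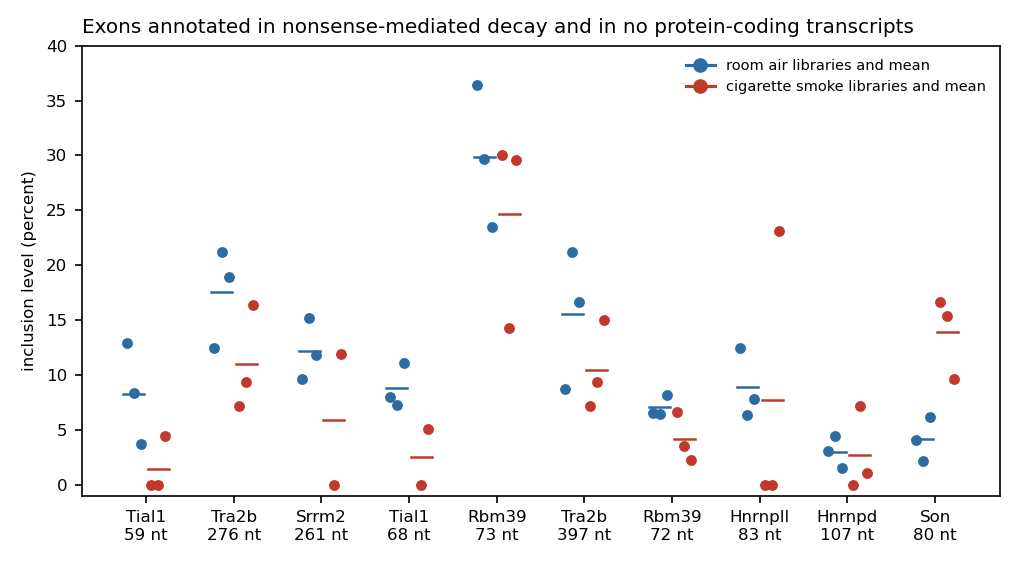
Inclusion level, in percent, of the 10 exons annotated in NMD transcripts and in no protein-coding transcript; points are libraries and bars are group means. The mean after smoke is lower for 9 exons and higher for the 80-nt exon of Son, and the 2 Tra2b exons share most of their bases.

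Cassette exons that GENCODE M21 places in protein-coding transcripts were divided in direction. Of 18 in the regulators, 8 were lower and 10 higher, none with an unadjusted p under 0.05, and 54.8% of all 1128 such exons were lower. Some of them switch known protein forms, and 4 are printed here because their levels show which form the macrophages made.
Hnrnpd 147-nt exon, chr5:99963731-99963877, minus strand: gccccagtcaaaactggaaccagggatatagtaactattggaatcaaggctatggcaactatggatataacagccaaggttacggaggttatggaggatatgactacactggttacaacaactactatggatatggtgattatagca
Hnrnpab 141-nt exon, chr11:51601750-51601890, minus strand: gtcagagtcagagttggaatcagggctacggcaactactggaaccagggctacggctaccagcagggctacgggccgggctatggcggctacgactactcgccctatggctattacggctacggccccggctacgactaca
Mbnl2 54-nt exon, chr14:120395712-120395765, plus strand: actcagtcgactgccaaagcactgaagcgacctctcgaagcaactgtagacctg
Ptbp1 78-nt exon, chr10:79860117-79860194, plus strand: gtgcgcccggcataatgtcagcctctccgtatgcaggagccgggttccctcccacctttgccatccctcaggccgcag
The Hnrnpd and Hnrnpab exons, which add a stretch rich in glycine and tyrosine to these related proteins, were included in part in both groups. The Hnrnpd exon stood at 51.3%, 51.4% and 51.7% in room air and at 52.8%, 57.9% and 53.5% after smoke. The Hnrnpab exon stood at 31.8%, 31.3% and 28.9% in room air and at 38.4%, 36.1% and 31.7% after smoke, with the lowest smoke library inside the room air range. The Mbnl2 exon was included at 5%, 7.55% and 4.26% in room air and at 8.33%, 12.5% and 11.1% after smoke (limma, unadjusted p = 0.0979), with no overlap. The Ptbp1 exon, which lengthens a linker between RNA-binding domains and makes the protein a stronger repressor, had means of 42.3% and 42.6%.

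2 further events at alternative splice sites, seen through junction reads only, had an unadjusted p under 0.05, which with 2 of the cassette exons makes 4 of the 132 events that were not retained introns (3.03%, beside 6.15%). In Rbm5 an alternative 5′ splice site was used at 6.25%, 6.9% and 2.63% in room air and at 0% in both smoke libraries with a value (limma, unadjusted p = 0.00602, adjusted p = 0.225). In Luc7l3 an alternative 3′ splice site was used at 4%, 5.6% and 3.39% in room air and at 0%, 0% and 2.75% after smoke (limma, unadjusted p = 0.0324, adjusted p = 0.409). Over the 88 events with 6 values that were not retained introns, 7 lay wholly below room air after smoke (7.95%, beside 9.46% of such events in the table) and 13 wholly above (14.8%, beside 5.66%). These 13 are fewer separate choices than events, since pairs in Hnrnpk, Hnrnpr and Hnrnpul1 describe 1 splice site each. The 5-nt donor extension in Hnrnpr, for example, had 4%, 2.08% and 4% in room air and 8.33%, 7.69% and 4.44% after smoke.

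A second deposited analysis, by rMATS, gives 1 false discovery rate per retained intron from counts of junction and intron reads. It lists 44 introns in 26 regulators, and 10 introns in 8 regulators passed a false discovery rate of 0.05 by the authors' deposited table. This is 22.7%, compared with 14.5% of its 3887 introns. In all 10 the first sample set had the higher level, as in 537 of the 565 introns called in the whole table (13.8% of its 3887 introns were called in that direction). Called or not, the first set was higher in 32 of the 44 introns and the second in 12. This is 72.7% with the first set higher, near the 69.8% of all introns. The table does not name its 2 sets, so the direction of smoke is not read from it. The lowest false discovery rate was that of the Hnrnph1 939-nt intron, 5.41e-06 with a difference of 12.4 percentage points between the sets in the authors' deposited table. The Hnrnph1 1494-nt intron (0.000624) and 2572-nt intron (0.0396) were also called in the authors' deposited table. The other called introns were the 1181-nt intron of Hnrnpd (3.73e-05), the 2065-nt intron of Srrm1 (8.16e-05), the 334-nt intron of Tial1 (0.00128) and the 1977-nt intron of Hnrnpa2b1 (0.00235) in the authors' deposited table. The 430-nt intron of Hnrnph3 (0.0206), the 2000-nt intron of Hnrnpll (0.0289) and the 504-nt intron of Nono (0.0408) completed the 10 in the authors' deposited table. Of all 44, 9 were also JuncBASE events, 6 of them called by rMATS. In JuncBASE these 6 were all lower after smoke, with differences from -6.72 points for the 1181-nt Hnrnpd intron to -19.1 points for the 1977-nt Hnrnpa2b1 intron. The other 3 were not called. The 1506-nt Luc7l3 intron, -13.3 points in JuncBASE, differed by 3.6 points between the sets in the authors' deposited table (false discovery rate 0.548). The 3300-nt Rbm25 intron, -7.02 points in JuncBASE, differed by 0.7 points in the authors' deposited table (0.63). The 486-nt Hnrnpa2b1 intron, -0.187 points in JuncBASE, differed by -6.9 points in the authors' deposited table (0.371), with the second set higher. Introns of Tia1 and Luc7l2, for which JuncBASE listed none, were also listed by rMATS and not called. The Tia1 introns of 246, 1391, 673 and 379 nt differed by -27.6, -12.3, -3.2 and 1.1 points. The 4684-nt Luc7l2 intron differed by 6.9 points.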

How the data were processed

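Total RNA of 6 macrophage cultures was turned into strand-specific libraries, per the labels' protocols. The submitters' processing notes name STAR, DESeq2, SAMtools 1.9, bedtools 2.27.1 and the build mm10 as used by the authors; the counting program and its use of strand are not given in the sources used here. The authors deposited group means of size-factor-normalized counts (a signal), log2 fold changes, standard errors, a Wald score and p-values from a fit on 24 libraries, 6 of them used here and 18 not, so the spread of the other 18 entered the standard errors. Inclusion per library is in percent in the deposited JuncBASE table, and rMATS levels are deposited as a fraction with p-values and false discovery rates. The 6 per-sample columns of the rMATS table were not used, since their sets are unnamed and separators are lost. Read depth per library is unknown from these tables, and no coverage minimum could be applied.

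The regulators and all lists were chosen with earlier results of these data known. Genes named are the regulators past an adjusted p of 0.05. Also named are the highest mean or largest fold change in each of 11 role groups, and the 3 highest and 3 lowest fold changes. Events named are those with an unadjusted p under 0.05, the 5 introns with the highest level and introns called by rMATS. Coding cassette exons, further Hnrnph1 introns, introns of genes that fell and other exons were chosen after their values were seen. Inclusion p was turned into log2((p + 1)/(100 - p + 1)) and tested over all 10376 events with limma 3.58.1 (R 4.3.3), adjusted by Benjamini-Hochberg. No expression values per library were used, so the test planned for them was replaced by the authors' own. A weighted spline trend (4 degrees of freedom each for GC content and log2 length, statsmodels 0.14.6 with patsy 1.0.2) was subtracted from the fold changes, and the residuals were tested against the deposited standard errors, adjusted over 12071 genes. Both steps were tested on simulated data. Annotation came from GENCODE M21 (GRCm38). Of the 188 events, 176 carried a locus of the authors' annotation that overlaps the gene. Exonic overlap with another gene exists on the same strand for 5 regulators and on the opposite strand for 16.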

Additional observations from a re-analysis of the deposited data

How the results depend on the processing

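Of the 7 regulators called lower, 4 remained at an adjusted p under 0.01 (all 4 lower). At an adjusted p under 0.1, 13 were called, 10 lower and 3 higher. With the trend in GC content and length taken out, 2 were called, both higher, and the fold change of Hnrnpr reversed to 0.50; the cause was not tested. Adjusting only over genes at or above a mean of 50 gave 8 calls, 7 lower and, as the added one, Hnrnpl higher (adjusted p = 0.0468), and over every gene with a p-value, 6, without Ptbp3 (adjusted p = 0.0672). The median log2 fold change lay between -0.18 and -0.05 in all settings tried. JuncBASE calls in regulators ranged from 0 to 13 when each library was left out, with 13 without cigarette smoke replicate 3 (6 of them with a single smoke library left), and were 0 with a pseudocount of 5, on untransformed percentages and with complete events only. With the replicate number as a block they were also 0, and 6 events had an unadjusted p under 0.05 in place of 14; same-numbered libraries had correlations of 0.018, -0.04 and -0.089 over 5933 events, no smoke library correlated best with its own number, and the libraries share only a number. The mean difference of retained introns was -8.62 points for introns with a mean of at least 10% (18 introns), beside -5.43 over the 496 such introns of the table, and -7.49 to -5.71 when each library was left out; all 38 introns were annotated. Introns called by rMATS were 6 at a difference of at least 10 percentage points and 6 at a false discovery rate under 0.01, of 44 listed, beside 172 and 302 of all 3887. Precision is limited by 3 libraries per group, unknown read depth and missing values in smoke replicate 1.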
